A study of Drosophila melanogaster with 1908 samples.

Results

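The gene matrix of this sci-RNA-seq3 atlas of *D. melanogaster* embryos holds, beside the genes, rows that each count UMIs (unique molecular identifiers, 1 per captured RNA molecule) on 1 annotated transposon insertion of the reference genome. The 150 insertion rows with the most UMIs over all cells are described here. They came from 5416 insertion rows among the 23932 rows of the matrix, and 979 of those insertion rows had no UMI in any cell. Together the 150 rows held 615872 UMIs, which was 59.7% of the UMIs on insertion rows and 0.177% of all UMIs, and 43.1% of the 547805 cells had at least 1 of them. Rows are named here by their family and by the FlyBase identifier (FBti) that the matrix holds. They were chosen by their total over all cells, which is given as a description only. At the lower end, INE-1 FBti0062082 held 1949 UMIs, mdg1 FBti0060577 held 1885 and INE-1 FBti0062040, the last row taken, held 1851. The first rows left out were INE-1 FBti0062220 with 1847, Tc1 FBti0019498 with 1826 and INE-1 FBti0062471 with 1797.

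All cells were nuclei of untreated wild-type Canton S embryos, kept at 25°C, in 11 overlapping collection windows from 0 to 2 hours to 16 to 20 hours after egg laying. No group carried a transgene, a deletion or a treatment. The nuclei were processed in 7 experiments, numbered 1, 2, 3, 4, 10, 11 and 12 in the labels, and each experiment covered only some of the windows. UMIs were summed over the nuclei of 1 experiment and 1 window, which gave 38 sums of up to 56990 cells and of 462334 to 36032867 UMIs, with a median of at least 341.5 UMIs per cell in each experiment. The experiment is the replicate within a window and in the comparisons between nuclei. The window tests held no term for experiment, so sums of 1 experiment in different windows were treated as independent there. The sources used here do not state whether experiments used separate embryo collections, so that p-values measure the spread between experiments, which may be technical. Cell barcodes do not name a cell alone: the 547805 cells carried 118646 distinct barcodes, shared between PCR wells.

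Transposons are mobile DNA elements. LTR retrotransposons such as roo copy themselves through an RNA that runs from one long terminal repeat to the other, non-LTR retrotransposons such as Doc and jockey through an RNA with no such repeats, and DNA transposons such as 1360 and H move as DNA. INE-1, a short element related to the Helitrons, is the most numerous transposon of the fly genome and is thought to have long been inactive. In flies, small RNAs bound by Piwi proteins restrain transposons, mostly in the gonad, and the egg carries Piwi and its small RNAs into the embryo. Several retrotransposon families are known to be transcribed in particular tissues of the fly embryo.

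The annotation gave a position for all of the 150 rows, and none of the positions or families entered the choice. Positions are those of the reference genome, and whether each insertion is present in these Canton S embryos was not tested. The roo family supplied 81 of the 150 rows, which were 59.6% of the roo rows of the matrix, INE-1 supplied 17 out of 2234, 1360 supplied 9, and the other families supplied 43. Of the 150 rows, 99 were LTR retrotransposons, 22 DNA transposons, 17 Helitron-related, 11 non-LTR retrotransposons and 1, a Y element, has no class assigned here. The roo rows had a median length of 9093 bases, close to a full element, whereas the 1360 rows had a median of 871 bases and the INE-1 rows were shorter still. Of the 66 roo rows of 9000 bases or more, 52 were among the 150, as against 29 of the 70 shorter ones. Of the 150 rows, 93 lay inside introns, 65 of them on the strand of the gene and 28 on the opposite strand, 28 overlapped an exon and 29 lay between genes. By chromosome, 40 rows were on 2R, 24 on X, 24 on 3R, 23 on 3L, 20 on the small chromosome 4 and 19 on 2L. An UMI on a row inside a gene can come from the element or from a transcript of the gene, since nuclei hold unspliced RNA. The sources used here do not state how reads that match several places, or the strand of a read, were handled. Copies of roo are close to identical, so that the row on which a roo UMI was counted is uncertain. The sum over roo rows depends less on that row, but transcripts of genes and the handling of such reads can still affect it. Levels below are UMIs per 1000000 UMIs of a sum (CPM) and were compared between times, experiments and nuclei, never between rows, which differ in length.

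The roo rows shared 1 time course. Their summed level was 12.3 CPM ± 4.31 (SD, n = 4 experiments) at 0 to 2 hours, 50.1 ± 34.1 (n = 4) at 1 to 3 hours and 423.5 (n = 2) at 2 to 4 hours. It reached 2634 ± 1496 (n = 6) at 3 to 7 hours and 3528 ± 2475 (n = 4) at 4 to 8 hours. The 4 to 8 hour window lacked experiments 11 and 12, which were among those at 3 to 7 hours. The mean was then 2507 ± 975 at 6 to 10 hours, 1315 ± 612.2 at 8 to 12 hours, 480.6 ± 151.7 at 10 to 14 hours, 446.9 ± 96.5 at 12 to 16 hours, 480.2 ± 224.2 at 14 to 18 hours and 346.8 ± 149.7 at 16 to 20 hours (n = 3 each). At 0 to 2 hours the 4 experiments lay between 7.96 and 17.8 CPM and at 4 to 8 hours between 753 and 6506 CPM, so that these windows did not overlap. Experiments 2 and 10 held both windows, and the sum went from 17.8 to 2481 CPM in experiment 2 and from 13.5 to 753 CPM in experiment 10. Experiments 1 and 10 held both 4 to 8 and 16 to 20 hours, and the sum went from 4373 to 420.5 CPM in experiment 1 and from 753 to 174.6 CPM in experiment 10.

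**Figure D1:**
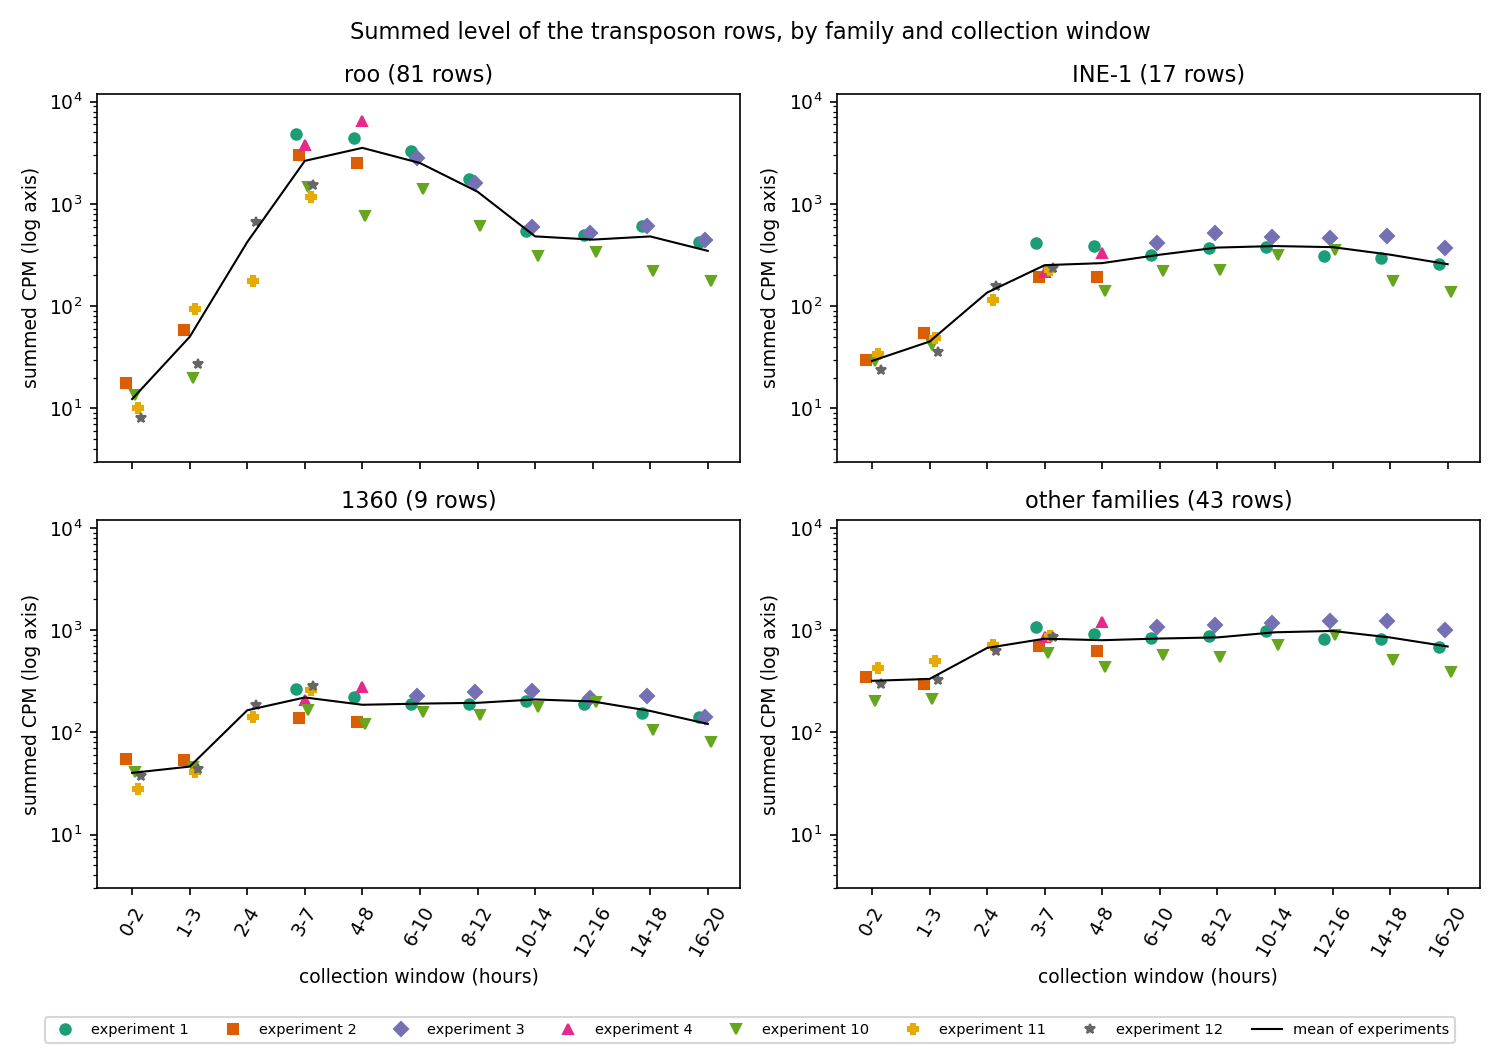
Summed level of the 81 roo, 17 INE-1, 9 1360 and 43 other rows in each collection window (CPM, log axis); each symbol is 1 experiment and the line joins the means of the experiments. The mean roo sum was 12.3 CPM in the first window, 3528 CPM at 4 to 8 hours and 346.8 CPM in the last, while the other 3 panels stayed within a narrower range, and experiment 10 had the lowest roo sum in every window from 4 to 8 hours on.

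The other families changed within a narrower range. The INE-1 sum went from 29.1 CPM ± 4.36 (n = 4) at 0 to 2 hours to 263.3 ± 116.9 (n = 4) at 4 to 8 hours, was highest at 386.5 ± 79.3 (n = 3) at 10 to 14 hours and ended at 256.9 ± 117.95 (n = 3). The 1360 sum went from 40.3 ± 11.0 to 186.5 ± 75.6 between the same 2 windows and ended at 121.2 ± 34.9 CPM. The 43 rows of other families went from 320 ± 93.5 to 798 ± 340, were highest at 983 ± 219.04 (n = 3) at 12 to 16 hours and ended at 692.8 ± 305.99 CPM. Since these are sums over whole embryos, fewer nuclei with an RNA and less of it per nucleus cannot be told apart in them.

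The change over windows was tested per row with edgeR's quasi-likelihood test in a fit of 12116 rows, all 150 among them, with Benjamini-Hochberg adjustment over all of them at 0.05. The level differed over the 11 windows for all but 3 of the 150 rows, where 87.2% of all rows did, the exceptions being FB FBti0020433, roo FBti0019996 and springer FBti0019616. From 0 to 2 to 4 to 8 hours, 140 rows rose, 8 fell and 2 (1360 FBti0061511 and G5A FBti0061115) did not pass the test, against 40.8% of all rows that rose and 26.7% that fell. The falls numbered 3 without experiment 11 and 3 with DESeq2. The median log2 fold change was 7.54, and 0.51 over all rows. From 4 to 8 to 16 to 20 hours, 87 rows fell, 12 rose and 51 did not pass the test, where 19.9% of all rows fell and 23.9% rose, with a median of -2.83 against -0.13 over all rows. The experiments of the compared windows did not overlap for 90.7% of the 150 rows that were higher and 5 rows that were lower in the first contrast (31.8% and 19.9% of all rows), and for 7 higher and 80 lower in the second (21.4% and 23.2%). The windows did not hold the same experiments, and the fit had no term for experiment, which are limits of both contrasts.

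In the first contrast all 81 roo rows rose, with log2 fold changes of 1.68 to 10.81 and a median of 8.22. In the second, 80 of the 81 fell, with a median of -3.18, and 1, roo FBti0019996, did not pass the test. Of the INE-1 rows, 16 of 17 rose early (median 5.88) and only 2 rose late. Of the 1360 rows, 7 of 9 rose early (median 4.72), and later 1 rose and 2 fell. Among the 43 other rows, 36 rose and 6 fell early (median 4.59), and later 9 rose and 5 fell. The late fall thus counted 80 roo rows among its 87. The 36 roo rows outside the 150 that had enough UMIs for the fit, of 55 in the matrix, gave 35 that rose early and 32 that fell late, with medians of 7.40 and -2.87. The 770 fitted rows of other families outside the 150 gave 75.5% that rose and 13 rows that fell early, and 120 that rose and 29 that fell late.

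**Figure D2:**
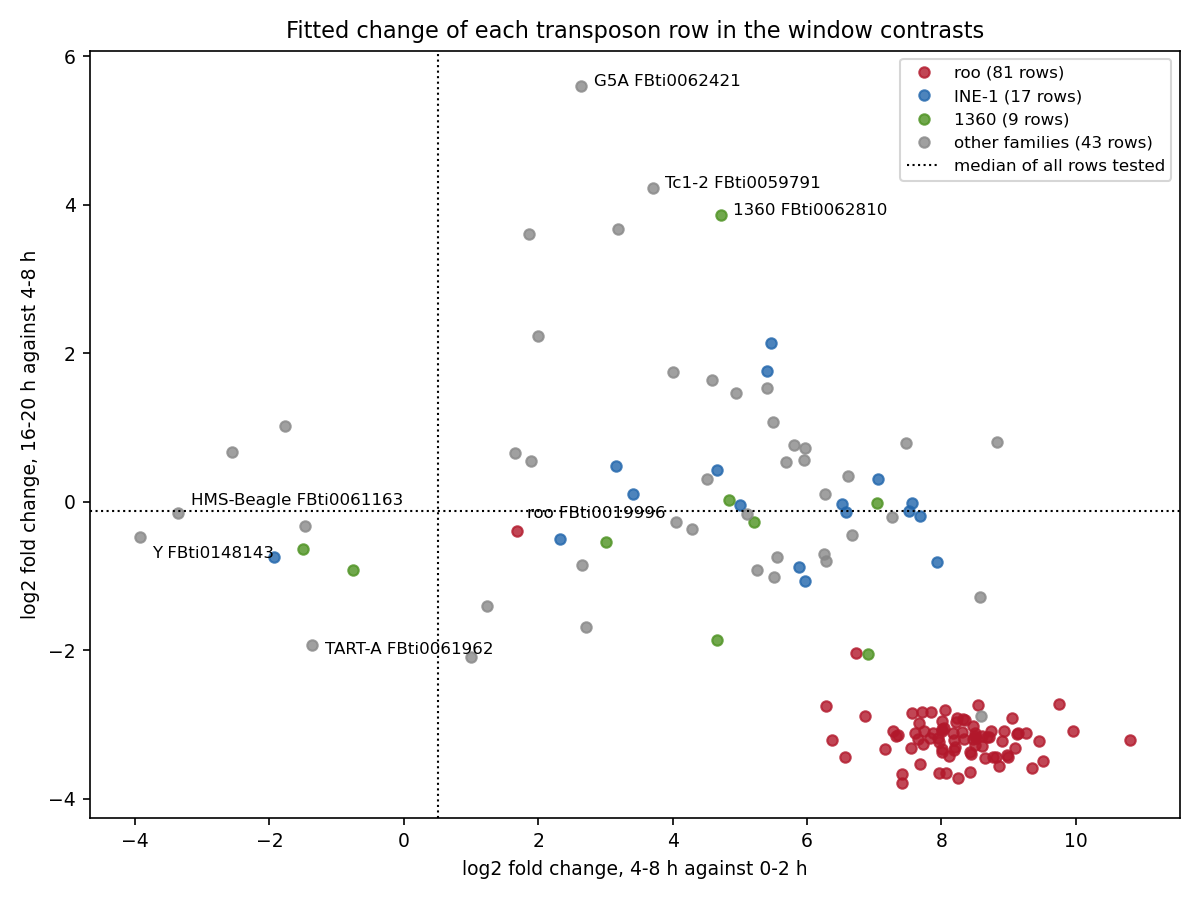
Fitted log2 fold change of each of the 150 rows from 0 to 2 to 4 to 8 hours (x axis) and from 4 to 8 to 16 to 20 hours (y axis), coloured by family, with dotted lines at the medians of the 12116 rows tested, 0.51 and -0.13. The roo rows form 1 group at the lower right around 8.22 and -3.18, with roo FBti0019996 apart at 1.68 and -0.39; fitted values of rows with almost no UMI at 0 to 2 hours depend on the prior count of the fit.

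The medians of the roo rows lay close together in 4 of 5 kinds of position. The 20 roo rows between genes had medians of 8.18 early and -3.16 late, the 24 inside introns on the opposite strand 8.14 and -3.12, the 26 inside introns on the gene's strand 8.45 and -3.18, and the 8 that overlapped exons on the gene's strand 8.06 and -3.35. The 3 that overlapped exons on the opposite strand, roo FBti0019996 among them, had medians of 7.66 and -3.20, with early values of 1.68 to 8.99. Over the 38 sums, log2 CPM of 2 roo rows correlated with a median Pearson r of 0.972 over 3240 pairs, as a description in which the sums share their depth and roo reads may be spread over copies. As a mean over experiments, a row made up 0.652% to 2.79% of the roo sum. In single experiments the shares ran from 0.251% (roo FBti0019996, experiment 2) to 5.60% (roo FBti0059659, experiment 11). The shares correlated between experiments with Spearman's rho of 0.446 to 0.841, median 0.634 over 21 pairs of experiments. Pearson r was 0.264 to 0.832 over the same pairs, so the parts taken from each row were alike only in part.

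Several roo rows had almost no UMI at 0 to 2 hours, so their fold is a bound or a ratio with a wide interval. The row roo FBti0019031, on chromosome 2R in an intron of bs (blistered, the fly serum response factor), had 0 UMIs in all 4 experiments at 0 to 2 hours and 36.5, 26.9, 58.3 and 7.65 CPM at 4 to 8 hours in experiments 1, 2, 4 and 10. Set against a floor of 3 UMIs over the 0 to 2 hour group, its level was at least 534.4-fold higher. At 16 to 20 hours it was 4.48, 3.09 and 1.39 CPM in experiments 1, 3 and 10, below every value at 4 to 8 hours. The row roo FBti0019196, on chromosome 2L (18051931 to 18061019, dm6) in an intron of rdo, had 2 UMIs at 0 to 2 hours and 1005 at 4 to 8 hours, a ratio of levels of 1523 with a 95% counting interval of 420 to 12592. Of the 150 rows, 2 had no UMI and 21 had at most 3 in the first window, and Doc FBti0020077, the other row with none, was at least 172.7-fold higher at 4 to 8 hours. With these 2 rows set to their bound the median over the 150 rows was 7.50.

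The row roo FBti0019051, the roo row with the most UMIs, shows the course in single experiments. It lies on chromosome X (14105078 to 14114170, plus strand) and overlaps an exon of lncRNA:CR44657 on the same strand. Its level was 0, 0.15, 0.34 and 0.10 CPM at 0 to 2 hours in experiments 2, 10, 11 and 12. At 4 to 8 hours it was 155.7, 39.9, 99.6 and 19.8 CPM in experiments 1, 2, 4 and 10. At 16 to 20 hours it was 15.2, 6.69 and 5.41 CPM in experiments 1, 3 and 10. Neither pair of windows overlapped, with log2 fold changes of 7.85 ± 0.84 (approximate SE; adjusted p = 6.65e-10, edgeR) and -2.83 ± 0.70 (adjusted p = 0.00131). The largest late falls among rows whose experiments did not overlap were those of roo FBti0019021 (-3.79 ± 0.71, adjusted p = 4.31e-05, edgeR), in an intron of CG42663, and roo FBti0060681 (-3.72 ± 0.68, adjusted p = 3.35e-05), in an intron of dpr3.

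A single roo row, roo FBti0019996, differed from the rest. It overlaps an exon of grh (grainyhead, an epidermal transcription factor) on the opposite strand, with 1237 of its bases in exons. Its level was 4.91, 2.99, 2.71 and 3.12 CPM at 0 to 2 hours in experiments 2, 10, 11 and 12. At 4 to 8 hours it was 20.0, 6.84, 32.8 and 3.41 CPM in experiments 1, 2, 4 and 10. At 16 to 20 hours it was 14.1, 10.8 and 3.91 CPM in experiments 1, 3 and 10. The value of experiment 10 at 4 to 8 hours lay within the range of 0 to 2 hours, and the windows of the late contrast overlapped throughout. It already had UMIs at 0 to 2 hours in all 4 experiments, where no other roo row had more than 29 UMIs in that window. Its level correlated with those of the other roo rows with a median Pearson r of 0.659 over 80 pairs, where the lowest r between any other 2 roo rows was 0.837.

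Inferred age, the hour that the authors' neural network gave each nucleus, resolved the roo peak further. In 1-hour bins the roo sum was highest at 4 to 5 hours in experiment 1 (6300 CPM), at 5 to 6 hours in experiments 2 (2929 CPM), 3 (4665 CPM) and 4 (4711 CPM), at 6 to 7 hours in experiments 11 (2194 CPM) and 12 (1595 CPM) and at 7 to 8 hours in experiment 10 (1616 CPM). Experiments 11 and 12 ended at 8 and 7 hours and experiment 3 began at 5 hours, so that their peaks sit near the end of what they held. At an inferred age of 0 to 1 hour the sum was 8.83 to 12.7 CPM in 4 experiments. From the peak to the last bin the sum was 25.6-fold lower in experiment 1, 11.5-fold in experiment 3 and 11.0-fold in experiment 10, the 3 experiments that went past 17 hours. The age model was trained on the expression of these nuclei, which may have included these rows.

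**Figure D3:**
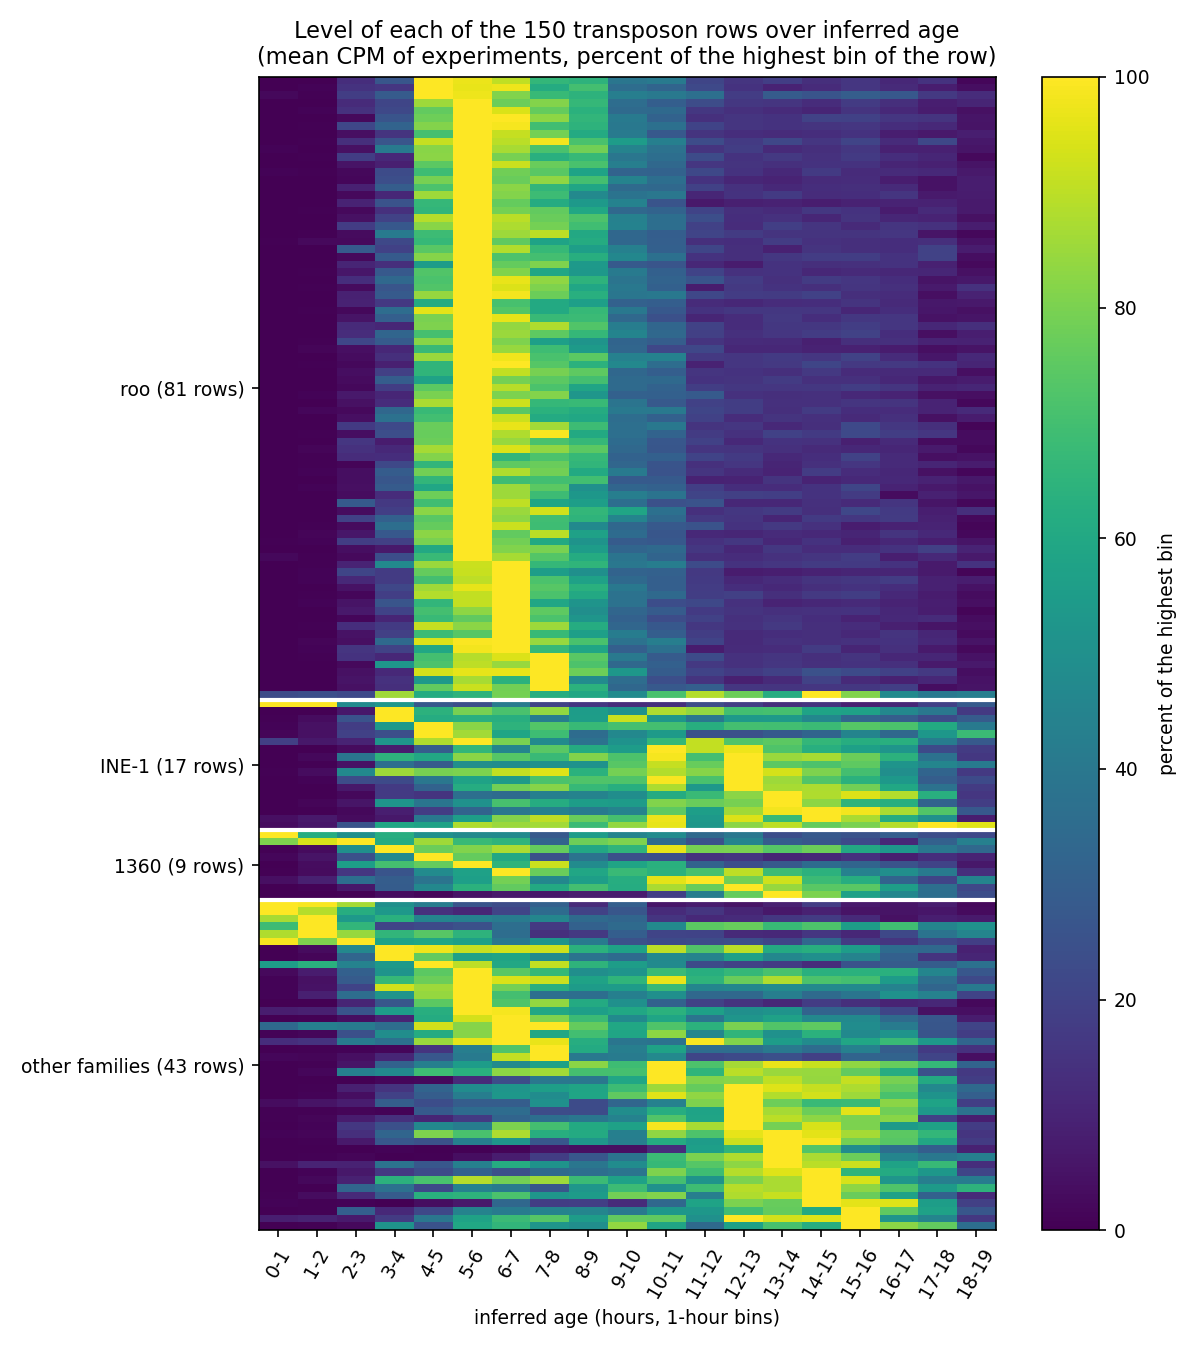
Level of each of the 150 rows in 1-hour bins of inferred age, as the mean CPM of the experiments that hold the bin and as a percent of the row's highest bin, ordered by family and by time of the highest bin. Most roo rows are highest at 5 to 6 hours and low from 11 hours on, whereas INE-1, 1360 and the other families spread from the first to the last hours.

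Row by row, the window of highest mean level was 4 to 8 hours for 80 of the 81 roo rows and 3 to 7 hours for the other. These windows did not hold the same experiments, which affects their means. The roo sum was higher at 3 to 7 than at 4 to 8 hours in experiments 1 (4862 and 4373 CPM), 2 (3037 and 2481) and 10 (1467 and 753). In experiment 4 it was lower at 3 to 7 hours (3763 and 6506 CPM). The peaks of the INE-1 rows spread over 7 windows, with 4 at 6 to 10 hours, and those of 1360 over 8 windows. Of the 43 other rows, 15 peaked at 12 to 16 hours and 6 at 4 to 8 hours. Over all 150 rows, 68.7% peaked in the windows from 3 to 7 to 6 to 10 hours. By experiment and 1-hour bin, between 87 rows in experiment 10 and 150 in experiment 4 had their highest bin at 4 to 8 hours of inferred age. In experiment 10 another 44 peaked at 12 hours or later, 26 of them of the other families and 13 INE-1. Experiment 4 held only ages of 4 to 8 hours, so its count could not be otherwise.

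The share of nuclei with a roo UMI was measured after each nucleus was thinned at random to 250 UMIs. It was 0.207% to 0.604% at 0 to 2 hours, 17.1% to 46.6% at 3 to 7 hours, between 11.9% and 55.3% at 4 to 8 hours and, at 16 to 20 hours, between 3.99% and 9.57%. Without thinning the shares were 0.754% to 1.74%, 31.3% to 58.4%, 23.1% to 64.3% and 8.68% to 15.7%. Free RNA in the pool can give a nucleus a UMI, and no cell type known to lack roo RNA was available to set its level. The spread of roo UMIs over nuclei was uneven, as measured by a ratio that cannot be compared between windows of unlike level. An even spread of the same UMIs over all nuclei would have given more nuclei with a UMI: the ratio of the observed to the even share was 0.872 to 0.971 at 0 to 2 hours and 0.389 to 0.857 at 1 to 3 hours (n = 3 each, without experiment 2), 0.524 and 0.617 at 2 to 4 hours, 0.386 to 0.743 at 3 to 7 and 4 to 8 hours, 0.540 to 0.616 at 6 to 10 hours. It was 0.617 to 0.706 at 8 to 12 hours and 0.827 to 0.926 at 10 to 14 and 12 to 16 hours. At a like level, a lower ratio means a more uneven spread. Where few nuclei hold a UMI, the ratio nears 1 even for an uneven spread. At 14 to 18 and 16 to 20 hours it was 0.740 to 0.912, and for the INE-1 sum it was 0.770 to 0.979 in all windows.

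The spread of single rows over nuclei was measured in the same way. Single rows had UMIs in few nuclei, where the ratio nears 1 even for an uneven spread. In its highest window, each row had a ratio between 0.707 and 1.00, with a median of 0.947, 0.9498 for roo rows, 0.930 for 1360, 0.942 for the other families and 0.833 for INE-1. The lowest were roo FBti0019996 at 0.707 ± 0.140 (SD, n = 2), transib3 FBti0019501 at 0.737 ± 0.0464 (n = 3), in unc-13, a gene of neurotransmitter release, and G5 FBti0020406 at 0.747 ± 0.0817 (n = 3), in the ankyrin gene Ank. The highest were blood FBti0063268 at 1.00, from 1 experiment, Y FBti0148143 at 0.999 ± 0.00771 (n = 4) and mdg1 FBti0060577 at 0.995 ± 0.0130 (n = 3). The share of nuclei with a UMI of a given row in that window lay between 0.111% and 4.29%.

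Some rows went against the early rise. Of the 8 rows called lower at 4 to 8 than at 0 to 2 hours, 3 were called without experiment 11 and 3 with DESeq2. The 8 rows were Y FBti0148143, HMS-Beagle FBti0061163, blood FBti0063268, INE-1 FBti0063275, springer FBti0019616, 1360 FBti0061958, HMS-Beagle FBti0062914 and TART-A FBti0061962. The sign of blood FBti0063268 turned with experiment as a block. An exon of a gene is overlapped by 7 of them, while 1360 FBti0061958 lies between genes. The overlapped genes lncRNA:CR46472 (-3.98), CG46385 (-2.17), CG8765 (-2.17), l(1)G0289 (-1.99), nxf2 (-0.91) and Ssdp (-0.87) were themselves called lower in the same contrast. The gene eIF4A, at 0.07, was not. Whether the UMIs of these rows came from the element or from the gene was not tested. For springer FBti0019616 the overlap is 1 base on the opposite strand, and that row did not pass the test over all windows. The largest fall was that of Y FBti0148143, on chromosome X (21520106 to 21521878), which overlaps an exon of lncRNA:CR46472 on the same strand. Its level was 87.7, 46.6, 120 and 99.3 CPM at 0 to 2 hours in experiments 2, 10, 11 and 12 and 13.2, 4.26, 18.2 and 2.20 CPM at 4 to 8 hours in experiments 1, 2, 4 and 10. The groups did not overlap, at a log2 fold change of -3.93 ± 0.61 (adjusted p = 1.04e-06, edgeR). The row HMS-Beagle FBti0061163 overlaps an exon of CG46385 and had 122.7, 43.1, 161.6 and 84.6 CPM at 0 to 2 hours against 6.16, 15.6, 26.7 and 9.62 CPM at 4 to 8 hours, in the same order of experiments. The row TART-A FBti0061962, on chromosome 3L (16576994 to 16577693), overlaps an exon of nxf2, a nuclear silencing factor of the Piwi pathway. It had 38.7, 43.6, 44.8 and 37.2 CPM at 0 to 2 hours, 16.6, 24.02, 14.6 and 24.9 CPM at 4 to 8 hours and 4.596, 5.14 and 4.77 CPM at 16 to 20 hours. It fell in both contrasts (-1.36 ± 0.37 and -1.94 ± 0.44, adjusted p = 0.00178 and 0.000448, edgeR), and no 2 of these windows overlapped. The early value did not pass the test without experiment 11 (-0.82) or with DESeq2 (-0.48), and the late one did not without experiment 10 (-1.55).

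Levels also differed between experiments within a window. With the window as a factor, the terms for experiment passed the test for all but 3 of the 150 rows, where 80.2% of all rows passed, the exceptions being H FBti0061344, Cr1a FBti0059668 and INE-1 FBti0062082. The widest gap between experiments was that of blood FBti0063268, a stretch of 37 bases in an exon of eIF4A, a translation initiation factor. Its level was 10.7 CPM in experiment 11 and 13.4 CPM in experiment 12 at 0 to 2 hours, as against 0 in experiment 2 and 1.65 in experiment 10. At 4 to 8 hours, a window with neither experiment 11 nor 12, it was 0 to 3.64 CPM. Its early value of -2.56, called lower above, became 0.53 with experiment as a block, so its direction is uncertain. The next widest gaps, in log2 units, were 3.89 for Doc FBti0020077 and 3.29 for Dm88 FBti0061827, and that of blood FBti0063268 was 6.96.

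Rows that rose late were few and of other families than roo. The row G5A FBti0062421, inside an intron of CG30440 on the same strand, had 0, 0.07, 0 and 0.07 CPM at 0 to 2 hours, 0.21, 0.65, 2.43 and 0.08 CPM at 4 to 8 hours and 16.1, 34.97 and 8.30 CPM at 16 to 20 hours (late log2 fold change 5.60 ± 0.82, adjusted p = 9.65e-07, edgeR). The row Tc1-2 FBti0059791, inside an intron of EcR, the ecdysone receptor, had 0.85, 1.03, 4.86 and 0.53 CPM at 4 to 8 hours and 12.2, 41.1 and 6.69 CPM at 16 to 20 hours (4.23 ± 0.71). The row 1360 FBti0062810, 70 bases on chromosome X (185555 to 185624) inside an intron of tyn (trynity, a protein of the apical matrix under the cuticle), had 5.95, 1.29, 2.43 and 1.14 CPM at 4 to 8 hours and 43.7, 33.9 and 21.4 CPM at 16 to 20 hours (3.87 ± 0.58). In all 3 rows the latest window lay above every value at 4 to 8 hours. The same held for jockey2 FBti0060342 in jing (3.68), accord FBti0018951 in CG17574 (3.60), INE-1 FBti0063408 in the calcium pump gene PMCA (1.76) and Tc3 FBti0060340 in CG42748 (1.64). Without experiment 3 the late rises numbered 7 in place of 12. The other 5 late rises, with overlapping experiments, were those of Tirant FBti0019220 (2.23), INE-1 FBti0063406 (2.14), HB FBti0020307 (1.74), Bari2 FBti0020436 (1.53) and transib3 FBti0019501 (1.47).

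The row with the most UMIs, H FBti0019603 on chromosome X (8293303 to 8296283), lies in an intron of nAChRalpha3, a subunit of the acetylcholine receptor, on the opposite strand. It had 3.68, 6.96, 3.25 and 4.37 CPM at 0 to 2 hours, 152.1, 118.7, 148.1 and 70.4 CPM at 4 to 8 hours and 81.95, 105.4 and 57.3 CPM at 16 to 20 hours. The early windows did not overlap (4.29 ± 0.37, adjusted p = 6.57e-12, edgeR), and the late ones did (-0.37 ± 0.35, adjusted p = 0.41). The rows Doc2 FBti0062333 in Stlk, INE-1 FBti0060888 in Nipped-B, HB FBti0019720 in Usp2, 1360 FBti0019905 in sxc and INE-1 FBti0060002 in gw also rose early, by 5.55 to 7.68, and did not pass the late test. By contrast 1360 FBti0019472, in an intron of ci (cubitus interruptus, the transcription factor of Hedgehog signaling), rose by 6.91 ± 0.60 and then fell by 2.06 ± 0.51 (adjusted p = 7.23e-12 and 0.00136, edgeR), although the fall did not pass the test without experiment 1 (-1.70) or without experiment 10 (-1.79).

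A gene around an insertion can give its row UMIs, so each row inside a gene of the reference genome was set beside that gene over the 38 sums. Whether the insertion lies there in Canton S was not tested. Of the roo rows, 61 lay in 60 genes, and log2 CPM of row and gene correlated with a median Pearson r of 0.50, as a description over sums that share window and depth. For the 60 other rows the median was 0.54, with 19 at 0.8 or more as against 8 of the roo rows. The highest were Y FBti0148143 with lncRNA:CR46472 (0.960), 1360 FBti0019472 with ci (0.946) and 1360 FBti0062810 with tyn (0.941). The lowest were all roo rows: roo FBti0019060 with pdgy (-0.659), roo FBti0019431 with LpR2 (-0.751) and roo FBti0019031 with bs (-0.829). Of the 60 roo rows in genes that fell late, the gene fell in 5 and rose in 29, where 19.9% of all rows fell and 23.9% rose. Of the 61 that rose early, the gene rose in 36 and fell in 7, where 40.8% of all rows rose and 26.7% fell. For roo FBti0020154 in ftz-f1, a nuclear receptor gene, chosen after its values were seen, row and gene moved in opposite directions, though the row to which a roo UMI belongs is uncertain. The log2 fold changes of ftz-f1 were -3.67 early and 5.26 late, and those of the row 8.43 and -3.64.

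**Figure D4:**
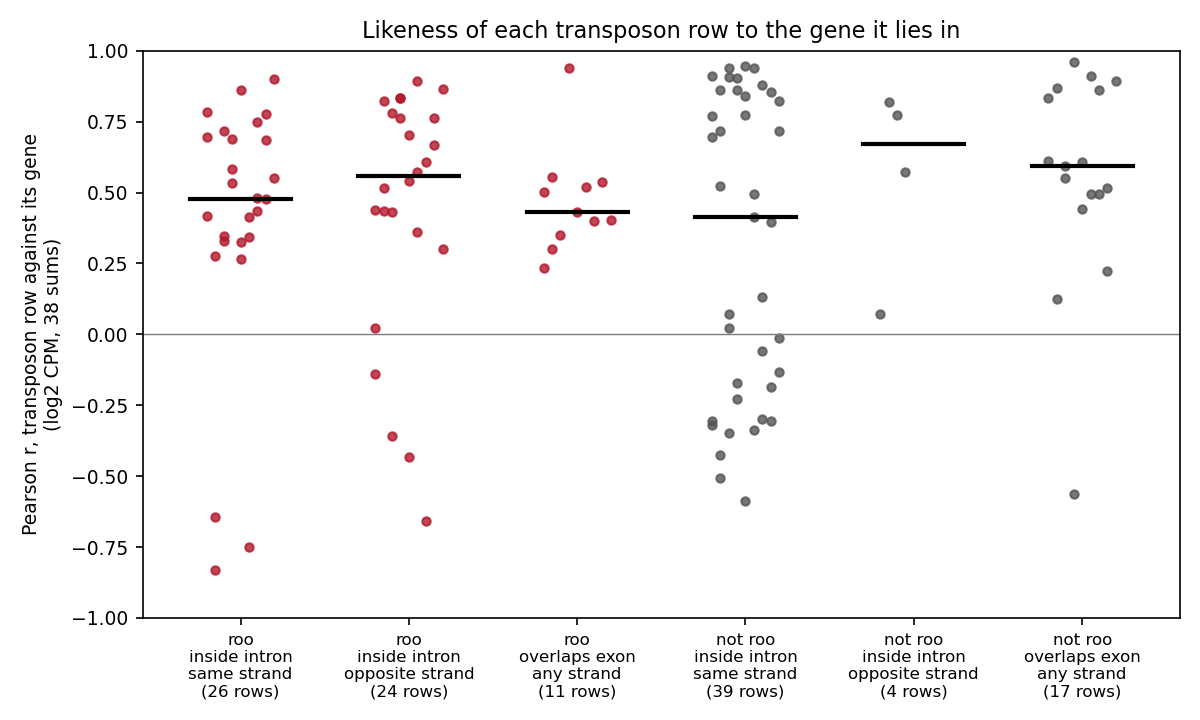
Pearson r between log2 CPM of each row and of the gene that holds it, over the 38 sums of 1 experiment and 1 window, for roo rows (red) and the other rows (grey) by position and strand; bars mark medians. The roo rows in introns have medians of 0.478 on the gene's strand and 0.557 on the opposite strand, and the other rows in introns on the gene's strand spread from -0.587 to 0.946.

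The genes whose level over the 38 sums was most like the roo sum, by Pearson r of log2 CPM over all fitted genes, were pnt (0.967), jeb (0.956), CG6041 (0.952), Toll-6 (0.951), ktub (0.9502), hh (0.949), Doc2 (0.948), sim (0.947), Sdc (0.946) and lncRNA:CR44833 (0.945). Of these, pnt is an ETS transcription factor, jeb the secreted ligand of Alk in the visceral mesoderm, hh the Hedgehog ligand, and Doc2 a T-box factor of the amnioserosa and dorsal mesoderm, not to be confused with the Doc2 transposon. The last of them, lncRNA:CR44833, holds a roo row of its own, roo FBti0059710.

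The genes known to restrain transposons were followed as a list of 47, of which 43 could be fitted. From 0 to 2 to 4 to 8 hours 29 of them fell and 1, fs(1)Yb, rose (median -1.39), and from 4 to 8 to 16 to 20 hours 25 fell and 2, tapas and tj, rose (median -1.36), against the shares of all rows given above. The Piwi protein gene piwi went from 304.8 CPM ± 24.7 (SD, n = 4) to 32.7 ± 14.8 (n = 4) and 12.9 ± 4.30 (n = 3) in these windows, with an early log2 fold change of -3.65 ± 0.37 (adjusted p = 1.56e-10, edgeR). The largest early falls were those of del (-4.49), a factor of piRNA cluster transcription, tapas (-4.09), a Tudor protein of piRNA amplification, vas (-3.94), the germline helicase, krimp (-3.81), shu (-3.69) and Boot (-3.65). The 4 genes of the siRNA pathway gave 2 that fell early, Dcr-2 and r2d2, and AGO2 and loqs, which did not pass the test. No link between these genes and the insertion rows was tested.

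Nuclei rich in the markers of 12 tissues were compared with other nuclei of the same inferred age in the same experiment. A nucleus counted as rich with UMIs of at least 2 different markers of a tissue and of more of them than of any other tissue, at 6 to 18 hours of inferred age. Such a set is a range of marker content and not a cell type. The test was edgeR's, paired by experiment, over all rows fitted for that tissue.

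In nuclei rich in germline markers (vas, nos, pgc and others) most of the rows fitted were low. The paper reports a greater error of the inferred age for cells annotated as germ cells and advises caution there. The match by inferred age is therefore less certain in this comparison. The roo sum was 429.8 CPM in rich and 2464 in other nuclei in experiment 1, 138.5 and 2312 in experiment 2, 361.5 and 1765 in experiment 3, 540 and 3955 in experiment 4, 216.5 and 847 in experiment 10, and 0 and 716 in experiment 12. It was lower in 6 of 6 experiments. Of 130 rows fitted, 120 were lower and 3 higher, all 78 roo rows among the lower, with a median of -2.98, where 34.9% of all rows were lower and 34.7% higher with a median of 0.15. The same nuclei also held more RNA of maternal genes: bcd at 162.6 to 214.5 CPM as against 9.14 to 66.4, tral at 2207 to 3240 as against 388.4 to 1791 and smg at 1071 to 2299 as against 167.5 to 676.4, and their median UMI count, 444.5 to 826, was above that of the other nuclei in each experiment. When nuclei with a UMI of bcd, tral or smg were left out on both sides, a choice made after the data were seen, 3 experiments and 1286 rich nuclei were left. The roo sum was then 1245 and 2194 CPM in experiment 1, 1320 and 1323 in experiment 3, and 727 and 946 in experiment 10. Of the 44 rows that could be fitted, edgeR called 0 lower (13.4% of all rows) and 0 higher (8.54%), with 6 lower and 0 higher at an unadjusted p under 0.05 and 0 of either by DESeq2, and the median was -0.65. The vas level in the rich nuclei stayed at 339.3 to 517.7 CPM. Both the level of roo and that of maternal RNA differed between the rich and the other nuclei. Among the nuclei left without a UMI of bcd, tral or smg, the roo sums lay closer in all 3 experiments. Leaving nuclei out also changed which nuclei were compared and how many rows could be fitted. What sets the lower roo level in the rich nuclei was not tested.

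The row Y FBti0148143 went the other way in nuclei rich in germline markers. It was higher there in 6 of 6 experiments (2.65 ± 0.34, adjusted p = 3.8e-07, edgeR), for example at 70.2 CPM against 11.4 in experiment 1 and 76.2 against 39.8 in experiment 12. It was also among the rows with their highest level in the early windows. Of the list of silencing genes, 27 of 40 were higher and 2 lower in these nuclei, where 34.7% and 34.9% of all rows were, but vas is 1 of the markers that chose them. Without nuclei holding maternal RNA, 14 of 33 were higher, where 8.54% of all rows were, among them piwi (3.47 ± 0.66, adjusted p = 0.00161, edgeR).

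At 6 to 18 hours, nuclei rich in fat body markers differed between experiments. The roo sum was 12268 CPM in rich and 1759 in other nuclei in experiment 2 and 5081 and 1426 in experiment 11, where the nuclei had a mean age of about 7.15 to 7.19 hours. It was 1269 and 1350 in experiment 1, 920 and 1298 in experiment 3 and 780 and 563.8 in experiment 10, with mean ages of 11.95 to 12.17 hours. Of the rows fitted 45 were higher, 37 of them roo, and 7 lower (31.5% and 4.90%), where 12.9% and 12.6% of all rows were. This count depended on the scaling: without TMM factors 4 were higher and 20 lower. The marker apolpp, the apolipoprotein of the fat body, made up to 275084 CPM of the rich nuclei. Without experiment 2 the count higher was 23 and without experiment 11 it was 25.

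The comparison was therefore repeated at 4 to 6 hours, around the roo peak, as a choice made after the data were seen. In nuclei rich in fat body markers the roo sum was 22824 CPM as against 5390 in other nuclei in experiment 1, 15223 and 2425 in experiment 2, 8670 and 5138 in experiment 4, 2893 and 752 in experiment 10, 4847 and 943 in experiment 11, and 9412 and 1306 in experiment 12. It was higher in 6 of 6 experiments, and in nuclei thinned to 250 UMIs the share with a roo UMI was 27.8% to 67.5% as against 11.8% to 49.4%. Before thinning, the rich nuclei had the larger median UMI count in each experiment. All 80 roo rows fitted were higher, with a median log2 fold change of 2.30. Of the insertion rows fitted here, 86 (85.1%) were higher and 1 lower, where 14.7% of all rows were higher and 5.76% lower. Most of the insertion rows with enough UMIs for this fit were roo, whose copies are close to identical. That share therefore mostly counts 1 family and is no count of separate results. Of the 3 rows of 1360 and 2 of INE-1 that could be fitted none was higher and 1 of 1360 was lower, with family medians of -0.52 and -0.21. In nuclei rich in hemocyte markers, the blood cells of the embryo, the roo sum at 4 to 6 hours was 29797 and 5263 CPM in experiment 1, 17131 and 2315 in experiment 2, 2297 and 1047 in experiment 10, and 5428 and 880 in experiment 11, higher in 4 of 4. There 69 of 80 roo rows were higher (median 2.47), and 70 of the 85 insertion rows that passed the same filter on low counts. Since 80 of those 85 rows were roo, this count too is mostly that of 1 family. No INE-1 row passed the filter, so INE-1 could not be compared there. Among all rows of the matrix fitted, 5.22% were higher and 0.536% lower. DESeq2 called 59 rows higher, and 26 rows were higher without experiment 1, 35 without experiment 2 and 51 without experiment 11. Nuclei rich in fat body markers also held hemocyte markers at 465.4 to 2305 CPM as against 200.5 to 400.5, and those rich in hemocyte markers held fat body markers at 480 to 2435 CPM as against 586.99 to 1167. The part of this overlap in the result was not tested. In the hemocyte comparison at 6 to 18 hours, 2 rows (1.35%) were higher and none lower, Tirant FBti0019220 (1.95 ± 0.20) and HB FBti0020307 (1.18 ± 0.32), where 7.05% of all rows were higher and 4.58% lower, and at an unadjusted p under 0.05 edgeR gave 3 rows lower and DESeq2 none.

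**Figure D5:**
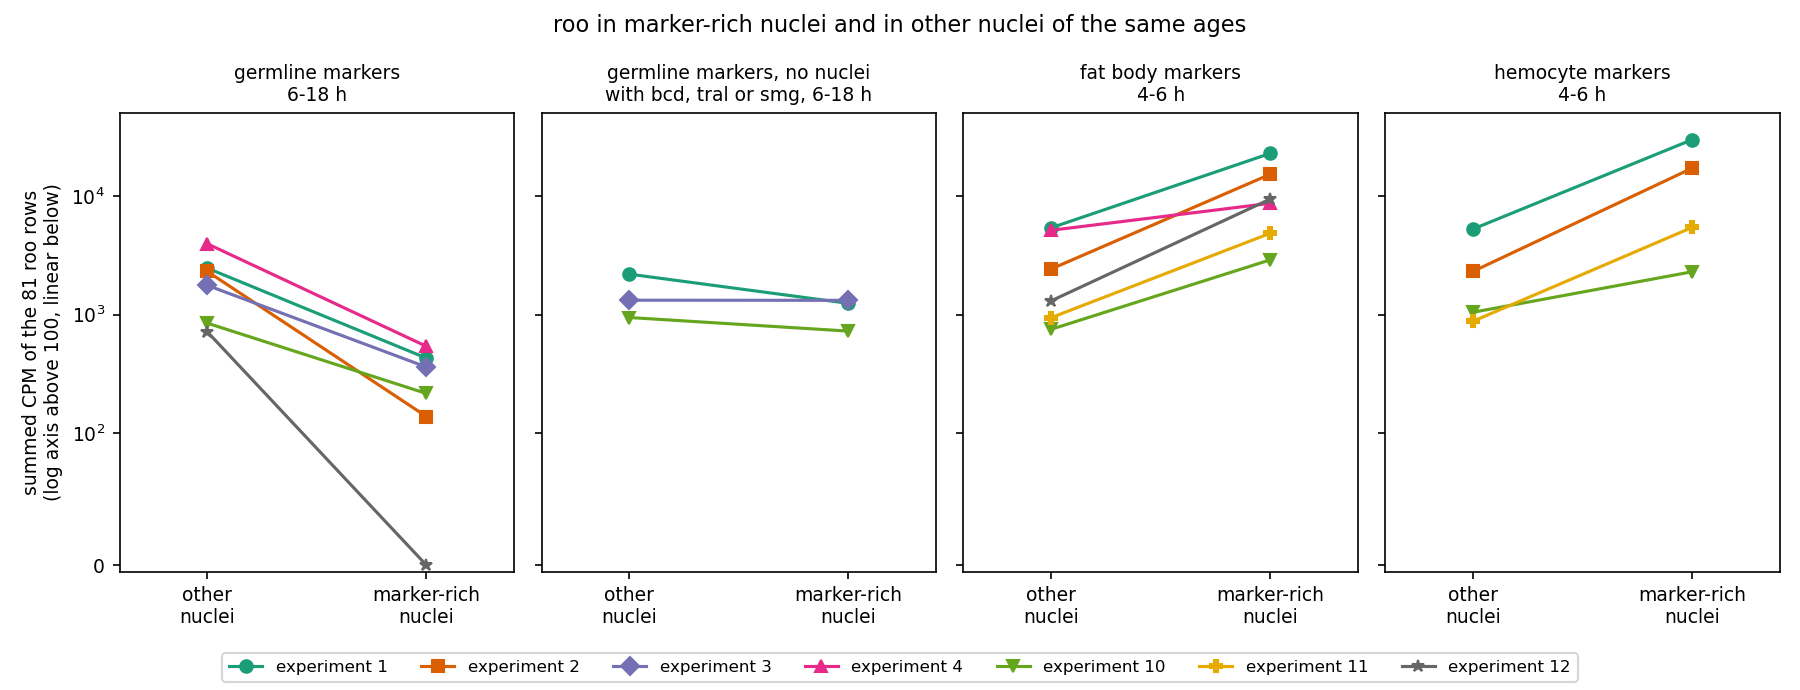
Summed level of the 81 roo rows (CPM; log axis above 100, linear below) in nuclei rich in the markers of a tissue and in other nuclei of the same inferred age, 1 line for each experiment. The lines fall in 6 of 6 experiments for germline markers, fall less steeply in the 3 experiments that remain once nuclei with maternal RNA are left out, and rise in 6 of 6 and 4 of 4 experiments for fat body and hemocyte markers at 4 to 6 hours.

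Nuclei rich in neuronal markers had INE-1 rows among those that were higher. At 6 to 18 hours 25 rows (16.9%) were higher and 4 lower, where 13.3% and 12% of all rows were. The higher rows numbered 2 without experiment 1, 9 without experiment 3 and 4 without experiment 10, and the lower rows numbered 0 in each of these and with DESeq2. One gene that chose the nuclei, unc-13, holds Bari2 FBti0020436, which was higher (2.04 ± 0.28), and transib3 FBti0019501, which did not pass the test (-0.05), so that the value of Bari2 FBti0020436 is no independent result. Of the 17 INE-1 rows 10 were higher, with a median of 0.86 over the family, while the roo rows, none of them among the calls, had a median of 0.30. The INE-1 sum was 481.4 and 310.9 CPM in experiment 1, 463.95 and 217.1 in experiment 2, 598.6 and 433.3 in experiment 3, 171.4 and 226.8 in experiment 4, 375.4 and 225.2 in experiment 10, and 488.2 and 508.6 in experiment 11, so that it was higher in 4 of 6 experiments, and in the other two the rich nuclei numbered 51 and 89. Rows named by the size of their rise and a like sign in every experiment were diver2 FBti0060945 (0.98 ± 0.26) and rooA FBti0060950 (0.89 ± 0.22), both in Nipped-A, and HB FBti0019720 (0.90 ± 0.20) in Usp2. At 4 to 6 hours 2 rows (1.63%) were higher and 1 (0.813%) lower, where 4.17% and 0.794% of all rows were, and the roo rows had a median of -0.34.

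In the other 8 tissues few rows differed, although for midgut markers the share that was higher lay above that of all rows. Nuclei rich in epidermis markers had 1360 FBti0062810 at 188.3 and 27.9 CPM in experiment 1, 229.2 and 28.96 in experiment 3 and 173.2 and 17.9 in experiment 10, in rich and other nuclei (3.25 ± 0.16, adjusted p = 1.98e-05, edgeR). The gene that holds it, tyn, is 1 of the markers that chose the nuclei, so this value is no independent result. The rows G5A FBti0062421 (2.82 ± 0.16) and Tc3 FBti0060340 (2.01 ± 0.18) were higher in the same nuclei in 3 of 3 experiments, and G5A FBti0062421 had 71.5 and 11.7 CPM in experiment 1, 190.7 and 31.7 in experiment 3 and 79.4 and 14.4 in experiment 10. Of the rows fitted 7 (4.70%) were higher and 3 (2.01%) lower there, where 11.9% and 8.64% of all rows were. Nuclei rich in midgut markers had 8 of the 41 rows fitted higher (19.5%) and none lower, where 13.9% and 16.4% of all rows were. At the head were jockey2 FBti0060342 (2.62 ± 0.51), accord FBti0018951 (2.18 ± 0.53) and HB FBti0020307 (1.90 ± 0.60). In nuclei rich in fat body markers the rows of other families that rose most were Tc1-2 FBti0061966 in fuss (2.66 ± 0.35), accord FBti0018951 (2.38 ± 0.46) and Tirant FBti0019220 (1.83 ± 0.28). Nuclei rich in amnioserosa markers had 8 rows (5.44%) higher, 6 of them roo, where 4.56% of all rows were, and none lower (9.24% of all rows), led by Tc1-2 FBti0059791 (1.02 ± 0.25), roo FBti0059710 (1.02 ± 0.30) and roo FBti0019435 (0.75 ± 0.23), and those rich in salivary gland markers had 2 rows higher, Tc1-2 FBti0059791 (1.78 ± 0.38) among them, and none lower, where 7.46% and 6.58% of all rows were. Trachea markers gave 2 rows higher and none lower (7.22% and 5.64% of all rows), and neural progenitor markers 4 lower and none higher (10.6% and 5.67%). For glia and somatic muscle markers edgeR called 0 rows, where 2.27% and 4.86% of all rows were higher and 4.19% and 1.95% lower. At an unadjusted p under 0.05 edgeR gave 1 higher row for glia and 9 lower rows for muscle markers, and DESeq2 called 0 and 4. For the directions with no call in the other tissues, the counts at an unadjusted p under 0.05 were 1 higher for neural progenitor markers and, lower, 0 for midgut, 2 for trachea, 1 for salivary gland and 1 for amnioserosa markers, and DESeq2 called 0 in each.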

How the data were processed

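Nuclei of Canton S embryos were sequenced by sci-RNA-seq3 (polyA RNA), and per the authors' processing notes reads were mapped with STAR 2.7.3a to dm6. The deposited matrix holds UMI counts per row and nucleus, with no normalization. The authors had removed nuclei with few or very many UMIs or a high ribosomal share, and doublets. The deposited cell table gives the experiment, the window and the inferred age of each nucleus, and its percent columns of ribosomal and mitochondrial reads come from the authors. Those columns were not tested. Experiment numbers came from the sample labels.

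The members of the list and all gene lists were chosen with earlier results of these data known. Families, positions and overlaps came from Ensembl annotation of the same assembly, which matched all 150 rows. UMIs were summed per experiment and window (at least 100 cells) and fitted with edgeR 4.0.16 (quasi-likelihood, filterByExpr, TMM) in R 4.3.3, with DESeq2 1.42.0 as the alternative, and p-values were adjusted by Benjamini-Hochberg over all rows fitted at 0.05. A standard error is the log2 fold change over the root of F, so it is approximate. The script was tested on simulated counts. Correlations used log2 CPM with a prior count of 1. Shares of nuclei with a UMI used a random thinning of each nucleus to 250 UMIs. For each rich nucleus up to 5 others of the same experiment and age were drawn (seed 1), at least 50 rich nuclei were needed per experiment, and visceral mesoderm markers, with 1 such experiment, were not tested. Counting intervals (95%) and floors cover counting error only.

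Rows named are the 20 with the most UMIs, the 10 largest changes in each direction of each contrast among those that passed the test without overlap, the 3 widest experiment gaps, the 3 extremes of spread and of likeness to the surrounding gene, the 3 largest rises per tissue with 1 sign in every experiment, and the 3 ranks on each side of rank 150. Rows named beyond these were chosen after their values were seen. Sums of the same experiment deviated together from their window means. Over all rows the median r was 0.365 in 107 pairs of sums of 1 experiment (above 0.1 in 96) and -0.0762 in 544 pairs of different experiments. Over the 150 rows it was 0.547 in pairs of 1 experiment (above 0.1 in 98) and -0.118 in pairs of different experiments. The p-values of the window tests do not allow for this. The experiment number marks a shared processing run, so it was used as a block in the tissue comparisons and as an alternative over windows.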

Additional observations from a re-analysis of the deposited data

Results flagged for a closer look

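Of 56 sets of 4 to 6 experiments examined (the sum of a family, or 1 row, in 1 window), 2 held 1 experiment far from the rest, where chance alone gives about 1 set in 20. The summed level of the 17 INE-1 rows at 3 to 7 hours was 414.2 CPM in experiment 1 and 194.4 to 237.3 CPM in the other 5 experiments. The single row INE-1 FBti0060002, in an intron of gw on chromosome 4, had 102.8 CPM in experiment 1 at 4 to 8 hours and 10.5 to 21.9 CPM in the other 3.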

How the results depend on the processing

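With each experiment left out in turn, the late falls numbered 79 to 87 rows, and the counts that differed over windows and that rose early stayed within 1.5 times. These counts stayed within 1.5 times under every other setting except the shorter list. With the 75 rows with the most UMIs in place of 150, 75 differed over windows, 68 rose and 5 fell early, 4 rose and 49 fell late, and 73 had an experiment term past the test. The 8 early falls became 5 without TMM factors, 5 in bins of inferred age, 3 with DESeq2 and 3 to 8 with an experiment left out (3 without experiment 11), and the 12 late rises became 7 to 12 (7 without experiment 3). With experiment as a replicate block, 6 fell early, and 12 rose and 98 fell late, with medians of 6.74 and -2.55, and blood FBti0063268 went from -2.56 to 0.53; the cause was not tested. The median over all rows moved from 0.51 to 1.64 early and from -0.13 to 0.28 late with DESeq2, and to 0.85 and -0.32 without TMM factors, while that over the 150 rows was 8.79 and -2.28, and 8.11 and -3.07. Spread ratios had a median of 0.920 at 400 UMIs and 0.941 to 0.951 with an experiment left out, and at least 100 rows, or 99 in longer bins of age, peaked in the middle windows.

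The tissue counts depended on the settings far more. Neuron markers gave 1 higher and 0 lower with no replicate block, 0 lower with DESeq2, 2 higher and 1 lower at 4 to 6 hours, and 2 to 31 higher and 0 to 4 lower with an experiment left out. Fat body markers gave 0 and 0 with no block, 4 and 20 without TMM factors, 5 and 2 with 3 markers, 4 lower with DESeq2, 86 and 1 at 4 to 6 hours, and 23 to 53 higher and 0 to 8 lower with an experiment left out. Hemocyte markers gave 0 higher with no block, 1 with DESeq2, 70 at 4 to 6 hours and 1 to 2 with an experiment left out. Germline markers gave 1 higher and 18 lower with no block, 0 and 0 without nuclei holding maternal RNA, and 2 to 3 higher and at least 92 lower with an experiment left out. The other 8 tissues together, with 27 higher and 7 lower, gave 15 and 11 without TMM factors, 7 and 0 with no block, 17 and 4 with DESeq2, 16 higher with 3 markers, and 9 to 27 and 0 to 11 with an experiment left out. The ages of 4 to 6 hours and the removal of nuclei with maternal RNA were chosen after the data were seen. A grouping of rows by sequence identity was planned and not run, and family names stand in its place. Over the named rows and all settings, 1493 values kept their direction and side of the threshold, 49 lost the call, 17 gained one and 1 reversed. Rows with 3 or fewer UMIs at 0 to 2 hours give bounds or wide intervals, not folds.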
